A study of Homo sapiens with 3 samples.

Results

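Ribosome profiling sequences the stretches of mRNA that ribosomes shield from nuclease, and the peaks described here are the footprints of that assay that were annotated to 3' untranslated regions (3' UTRs), the mRNA between the stop codon and the poly(A) tail. They are the rows of 3 peak lists whose annotation was 3' UTR, 607 of 46819 peaks in all. The vector list held 137 of them among 11219 peaks, the wild-type DDX3X list 315 among 19920 and the DDX3X G325E list 155 among 15680. DDX3X is an RNA helicase of the DEAD-box family, and the study asked how translation across the genome changes when it or its medulloblastoma-associated mutant is overexpressed. HEK293T cells, a human embryonic kidney line, were transiently transfected for 24 h with the empty vector pCDNA3.1 or with a construct for DDX3X carrying a FLAG tag, either wild-type or G325E. All cells received harringtonine (2 µg/ml for 90 s) and then cycloheximide (100 µg/ml) per the labels, whereas the study's methods name cycloheximide alone. There was 1 library per construct, so no difference between constructs could be tested.

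A ribosome that reaches a stop codon is bound by release factors, frees its protein and is then split by recycling factors, so 3' UTRs normally carry few ribosomes. Footprints past a stop codon can come from ribosomes that read through it, from ribosomes that were not recycled, or from translation of short open reading frames in the 3' UTR. Protected fragments can also come from RNA-binding proteins or structured RNA, and a footprint alone does not say which.

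The lists gave positions and strands with no height or read count, so the number of peaks stands in place of signal. In the study's supplement, mapped reads without duplicates were most in wild-type and fewest in G325E. Peak numbers were not scaled to these reads, and G325E had more peaks than vector on fewer reads. Intervals are 95% Wilson intervals that cover counting error over peaks. They are too narrow where several peaks share a gene. The labels call the cells neuronal, and peaks of any kind lay on 3 of 12 neuron markers (TUBB3, NEFL and NEFM) in each list, so most of those markers had none. Of 7 epithelial and kidney markers, VIM had peaks in each list, and KRT8 and KRT18 in the wild-type list only. DDX3X itself had 0 peaks of any class in the vector list, 32 in the wild-type list and 9 in the G325E list. Only 1 of these was a 3' UTR peak, a 26 bp peak in the wild-type list, and it lay in the coding sequence of another transcript of DDX3X.

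The 3' UTR class made up 1.22% of the vector list (interval 1.03 to 1.44%), 1.58% of the wild-type list (1.42 to 1.76%) and 0.989% of the G325E list (0.845 to 1.16%). The wild-type share was the highest and the G325E share the lowest, and the vector interval overlapped both others. On genes with any peak in all 3 lists it was 1.24%, 1.49% and 1.26% in vector, wild-type and G325E, so G325E was no longer the lowest. The smallest share that 3 peaks would give was 0.0267%, 0.0151% and 0.0191% in the same order. The annotation assigns peaks close to a transcript end to a class of its own (TTS) before it considers the 3' UTR, so peaks in the last stretch of a 3' UTR are not among the 607. With the TTS class added, vector had the highest share (6.90%), wild-type 6.46% and G325E 4.61%, so the order of vector and wild-type depends on how transcript ends are annotated.

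The peaks lay on 241 genes, 94 in the vector list, 194 in the wild-type list and 75 in the G325E list. These were 4.52%, 6.18% and 3.12% of the genes with any peak in the same list. Most had a single 3' UTR peak, 64 of 94 genes in vector, 116 of 194 in wild-type and 42 of 75 in G325E. Nearly all also had peaks elsewhere: 8, 14 and 6 genes had no exon class peak in the same list, and 5, 7 and 4 had no peak of any other class.

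Genes and positions recurred between lists in part. In all, 28 genes had 3' UTR peaks in all 3 lists, 42 in vector and wild-type only, 20 in wild-type and G325E only and 4 in vector and G325E only. A further 20, 104 and 23 had them only in the vector, wild-type or G325E list. When overlapping peaks were merged into 471 regions, 369 came from 1 list, 79 from 2 and 23 from all 3. The 23 regions lay on 21 genes, 16 of them with peaks on the strand of the gene and 7 with peaks on the opposite strand, and they are described first because each was called in 3 libraries.

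Several regions abutted the stop codon. In ALYREF, an adaptor that hands mRNA to the nuclear export machinery, a peak on the strand of the gene covered the stop codon in all 3 lists, at 38 bp in vector, 40 bp in wild-type and 50 bp in G325E, and all of them began at the same base in the direction of the gene (chr17:79846021). JUN, a subunit of the AP-1 transcription factor, had a peak just past its stop codon in all 3 lists (68, 64 and 37 bp), and the vector and G325E peaks reached into the codon. KCTD12, an auxiliary subunit of GABA-B receptors, had 24 and 25 bp peaks centred on its stop codon in the vector and G325E lists. The RPS3 peaks, on a protein of the small ribosomal subunit, were 7, 5 and 20 bp long and centred 8, 7 and 4 nt past the stop codon. No other class of peak was listed on RPS3. The 3 stop codons that these peaks covered are shown in the 30 bases around them, with the stop codon in capitals, read on the minus strand of GRCh37 at chr17:79845992-79846021, chr1:59247732-59247761 and chr13:77459291-77459320:
ALYREF: atggacaccagtTAAacagaccagcaaatc
JUN: ttgcaaacatttTGAagagagaccgtcggg
KCTD12: ttctgcagggagTGAgctccccagaccccc
The next stop codon in the same frame followed after 114 nt in ALYREF, 18 nt in JUN and 54 nt in KCTD12.

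Other regions called 3 times lay further along the 3' UTR on the strand of the gene. EEF2, the factor that moves the ribosome along mRNA by a codon, had 2 such regions, one centred 77 to 93 nt and one 247 to 249 nt after the stop codon, in a 3' UTR of 498 nt. IER2, an immediate early gene, had one centred 109 to 127 nt after its stop codon, and MAZ, a zinc finger transcription factor, one at 260 to 264 nt. MRPL23 and MRPL4, proteins of the large mitochondrial ribosomal subunit, had regions at 53 to 68 nt and 115 to 118 nt. TMSB10, an actin-sequestering peptide, had one at 74 to 77 nt, NAP1L4, a histone chaperone, one at 58 to 59 nt, PPDPF one at 32 to 36 nt, and SSNA1, a microtubule-associated protein, one at 165 to 170 nt. SF3B5, a subunit of the SF3b splicing complex, had its peak centred at 193 nt in every list, 26, 25 and 26 bp long in vector, wild-type and G325E. Some genome positions are read differently by other transcripts. The NAP1L4 peaks of this region (51, 50 and 52 bp in vector, wild-type and G325E) all lay in coding sequence of another NAP1L4 transcript. Among all members, 31 had midpoints in annotated coding sequence (2, 24 and 5 in the vector, wild-type and G325E lists). Peaks on MAZ, MRPL4 and ARHGDIA were also among them, and ARHGDIA had no region called in all 3 lists.

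Peaks of 7 regions called in all 3 lists were listed on the strand opposite to their gene. They lay on ALYREF (62 to 70 nt after the stop codon), CASZ1, a zinc finger transcription factor (691 to 694 nt), DLX2, a homeobox factor of the developing forebrain (178 nt), ELOF1, a transcription elongation factor (347 to 364 nt), IER5, an immediate early gene (342 to 343 nt), RAB5C, a small GTPase of early endosomes (435 nt), and SDF4, a calcium-binding protein of the Golgi lumen (211 to 241 nt). The DLX2 peak had the same ends in all lists, and the RAB5C and IER5 peaks differed by at most 1 base. Sequences of 5 of the 7 regions on the listed strand are shown as examples, without CASZ1 and SDF4. They stand beside 4 of the 16 regions on the strand of the gene. T bases, few in both sets, are in capitals. The opposite-strand set was read from GRCh37 at chr17:79845925-79845953, chr2:172965083-172965104, chr19:11664185-11664210 and chr17:40277356-40277376 on the plus strand and chr1:181059355-181059375 on the minus strand:
ALYREF opposite: cacagccccagccaccgccccccaaccag
DLX2 opposite: gTTcccccgagagaggggcccg
ELOF1 opposite: cggggggagccagagccccaaggcTg
RAB5C opposite: ccaccgcccaaaccaaagacc
IER5 opposite: ccacgcagccggcagaggaaa
The set on the strand of the gene was read at chr19:3976448-3976471 on the minus strand and at chr19:13264772-13264800, chr16:29821800-29821825 and chr19:10370593-10370616 on the plus strand:
EEF2 same strand: TggagacTgTcccgacacagcgac
IER2 same strand: gcgcccgcgaaaaccgTggagagaagccg
MAZ same strand: agTgggcaggggTggcagaggacacg
MRPL4 same strand: acggaggaagcTgaggccacaggg
The 5 opposite-strand peaks held 0 to 2 T bases and the 4 others 1 to 3, in 21 to 29 bases. These are examples only, and base content over all peaks is given further below.

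**Figure D1:**
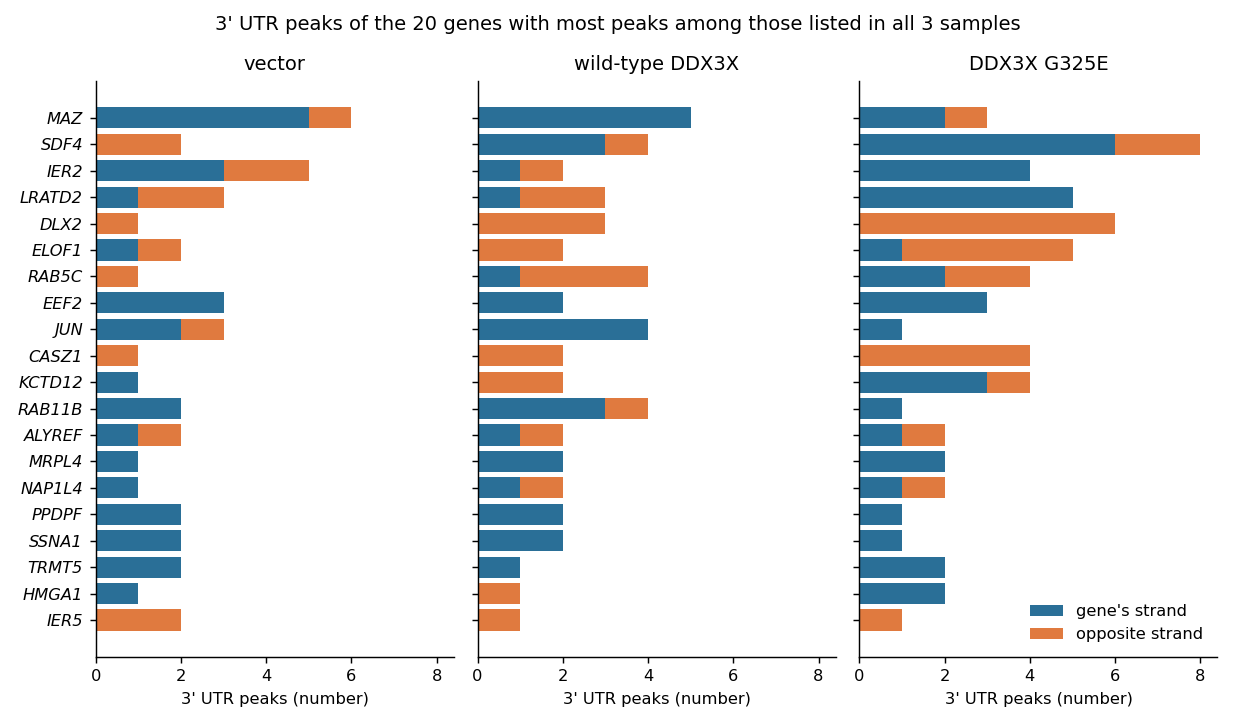
Number of 3' UTR peaks (x axis) on the 20 genes with most such peaks among the 28 that had them in all 3 lists (y axis), by list, with peaks on the strand of the gene in blue and on the opposite strand in orange. EEF2, MRPL4, PPDPF, SSNA1 and TRMT5 have blue bars alone, and DLX2, CASZ1 and IER5 orange bars alone. The longest bar is that of SDF4 in G325E, with 8 peaks.

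Among all 241 genes, MAZ and SDF4 had the most peaks, 14 each over the lists. MAZ had 6, 5 and 3 in vector, wild-type and G325E. SDF4 had 2, 4 and 8 in the same order, and 6 of its 8 G325E peaks were on the strand of the gene. IER2 had 5, 2 and 4, LRATD2 3, 3 and 5, and DLX2 1, 3 and 6, so MAZ and IER2 had most in vector and the other genes in G325E. The LRATD2 peaks of G325E included 3 of no length close to each other, so a count of peaks is not a count of separate sites. UBE2J2, a ubiquitin-conjugating enzyme of the endoplasmic reticulum, had 0, 4 and 6. ELOF1 had 2, 2 and 5, RAB5C 1, 4 and 4, EEF2 3, 2 and 3, and JUN 3, 4 and 1. CASZ1 had 1, 2 and 4 and KCTD12 1, 2 and 4. RAB11B, a small GTPase of recycling endosomes, had 2, 4 and 1, and HMGA1, a chromatin protein that binds AT-rich DNA, had 1, 1 and 2 at positions that did not overlap. With 1 library each, none of these differences can be set against replicate error.

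Some genes had 3' UTR peaks in 1 list alone. FOXI2, a forkhead transcription factor, had 7 peaks in G325E and 0 in the other lists. All of them were on the strand of the gene and lay 746 to 1232 nt after the stop codon, and they were the only G325E peaks on FOXI2, which had 4 exon class peaks in vector and 2 in wild-type. KLF16, ZNF282 and ZNF768, zinc finger proteins, followed with 3 peaks each in G325E. KLF16 and ZNF768 had no peak of any class in the other lists, and ZNF282 had 9 peaks in wild-type. In the wild-type list the leading genes of this kind had 4 peaks each. They were ARFGAP1, a GTPase-activating protein of the Golgi, PTDSS2, a phosphatidylserine synthase, and STMN3, of the microtubule-binding stathmin family. On ARFGAP1 and PTDSS2, 3 of the 4 peaks were on the opposite strand, whereas all STMN3 peaks were on the strand of the gene. In the vector list they were BSG, a cell surface glycoprotein, and RPP25, a subunit of RNase P, with 2 peaks each. The remaining genes found in vector alone had a single peak each, among them CCDC32, with 5 bp on the opposite strand.

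The gene groups examined held few 3' UTR peaks, and peaks on either strand were counted. Of the large-subunit ribosomal proteins with any peak, 1 of 43 in vector (RPL29), 0 of 48 in wild-type and 0 of 34 in G325E had a 3' UTR peak. RPS3 was the single small-subunit protein in each list, of 30, 31 and 27. Proteasome subunits had none, of 17, 18 and 13. Histones had 0 of 66, 1 of 67 and 2 of 63. These were H2AX, the histone variant of DNA damage signalling, in wild-type and G325E, and H2BC21, on the opposite strand, in G325E. Respiratory chain subunits had 1 of 36, 2 of 42 and 0 of 26, with ATP5F1D, a subunit of ATP synthase, in vector and wild-type. For comparison, 4.52%, 6.18% and 3.12% of all genes with a peak had one in the 3' UTR.

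Endoplasmic reticulum chaperones, the group of tubulins and actins, and translation initiation and elongation factors had a larger share than all genes in each list, on small numbers. Endoplasmic reticulum chaperones had 2 of 9 in vector, 3 of 11 in wild-type and 1 of 7 in G325E. P4HB, a protein disulfide isomerase, had 3 peaks in vector and 4 in wild-type within 138 nt of its stop codon and 0 in G325E. PDIA4, of the same family, had 1 in each, the wild-type one on the opposite strand. Tubulins, actins and actin regulators had 3 of 14, 3 of 15 and 3 of 13. TMSB10 was in every list, ACTB and CFL1, cofilin, in vector and wild-type, and the tubulins TUBB and TUBB2B in G325E. The TUBB and TUBB2B peaks and the wild-type ACTB peak were on the strand opposite to the gene. Translation initiation and elongation factors had 3 of 32, 4 of 40 and 2 of 28 (9.38%, 10.0% and 7.14%). The wild-type 4 were DDX3X, EEF2, EIF2S2 and EIF4H, so the transfected gene is counted there. The DDX3X peak lay in coding sequence of another DDX3X transcript. EEF2 was in every list. EIF4H, a cofactor of the initiation helicase, was in vector and wild-type, with all its peaks on the opposite strand. The hnRNP proteins had 1 of 15, 4 of 20 and 0 of 14. DEAD- and DEAH-box helicases had 0 of 12, 2 of 25 (DDX3X and, on the opposite strand, DDX56) and 0 of 11. SR and U2AF splicing factors had 0 of 12, 1 of 15 and 0 of 11. Heat shock and TRiC chaperones had 1 of 15, 1 of 23 and 1 of 16, and ZNF genes 0 of 9, 2 of 19 and 2 of 16.

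Groups tied to ribosomes at or past stop codons were small in these lists. Genes known for stop codon readthrough had 0 of 1 in each list, and poly(A)-binding proteins 0 of 3 in each. Ribosome rescue and recycling factors had 0 of 4, 1 of 4 (ZNF598, which detects collided ribosomes) and 0 of 3. The ZNF598 peak was on the strand opposite to the gene, in an annotated exon of another gene on that strand. Selenoproteins, which decode a stop codon as selenocysteine, had 0 of 3, 0 of 3 and 1 of 3. That gene was GPX1, a glutathione peroxidase, with a 29 bp peak in G325E that lay outside the exons of its canonical transcript. Groups this small cannot show a difference from other genes.

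The 3' UTR peaks were in the last exon of the annotated transcript almost without exception, 135 of 137 in vector (98.5%), 314 of 315 in wild-type (99.7%) and 153 of 155 in G325E (98.7%). The 5 others were on RALY (exon 9 of 10), NRGN (exon 3 of 4), MAP7D3 (exon 17 of 18) and MARVELD1 (exon 1 of 2, both in G325E). The annotated transcripts had a median of 5, 6 and 4 exons, against 8, 9 and 7 for exon class peaks. Transcripts of 1 exon carried 10.9%, 9.52% and 16.1% of the 3' UTR peaks, against 5.96%, 4.26% and 9.83% of exon class peaks.

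Along the 3' UTR, peaks of the 3' UTR class on the strand of the gene were concentrated next to the stop codon. Of those placed in the 3' UTR of the canonical transcript, 30 of 92 in vector (32.6%, interval 23.9 to 42.7%), 47 of 170 in wild-type (27.7%) and 34 of 106 in G325E (32.1%) had their midpoint within 50 nt of the stop codon. Their median distance was 104, 110.5 and 112.5 nt, while the median 3' UTR on which they lay was 933, 1071 and 1122 nt long. A base of the stop codon itself was covered by 11, 17 and 12 of them. Density per 1000 nt of 3' UTR was taken over genes with such a peak. In the 50 nt next to the stop codon it was 9.09, 7.70 and 11.1 peaks. Between 501 and 1000 nt it was 0.337, 0.332 and 0.339. Peaks that the annotation gave to other classes were not counted. By the canonical 3' UTR in place of the class, 2.02%, 2.46% and 1.53% of all peaks would count, against 1.22%, 1.58% and 0.989%. How far the fall with distance rests on this was not tested.

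Peaks on the opposite strand were spread otherwise. Their median distance was 282.5, 220.5 and 225 nt, 4 of 40 in vector, 10 of 120 in wild-type and 5 of 47 in G325E lay within 50 nt of the stop codon, and 0 covered it. Their density was 2.22, 2.38 and 3.52 peaks per 1000 nt in the first 50 nt and 2.13, 2.34 and 2.64 between 201 and 500 nt. Between 501 and 1000 nt it fell to 0.431, 0.462 and 0.784, so density was low there on both strands. On the strand of the gene the window next to the stop codon had the highest density in each list, whereas on the opposite strand it was highest in vector alone, on 4 peaks.

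**Figure D2:**
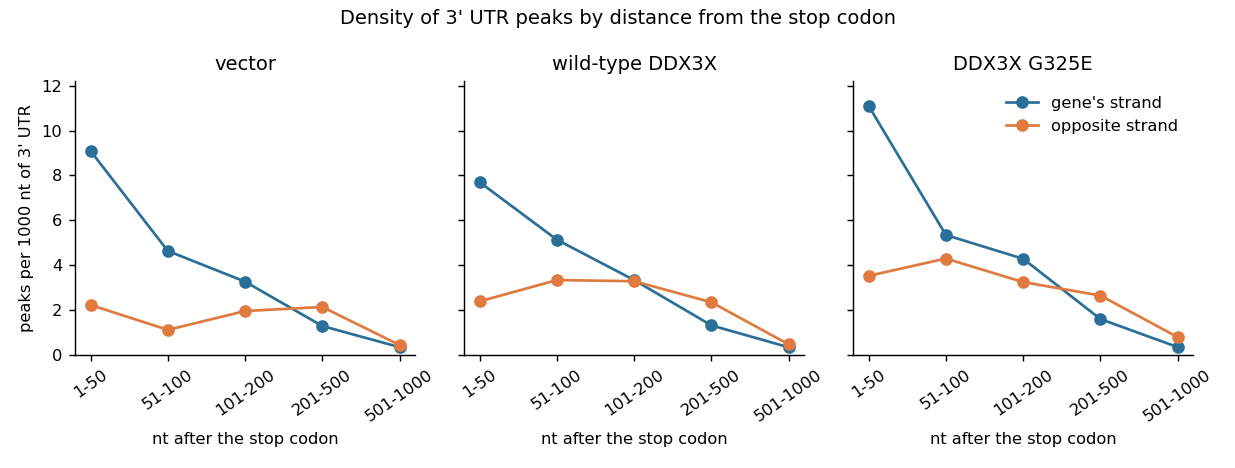
Peaks of the 3' UTR class per 1000 nt of 3' UTR (y axis) in 5 windows of distance from the stop codon in nt (x axis), by list. Peaks on the strand of the gene are blue and those on the opposite strand orange, each over the genes with such a peak in that list. Peaks of other classes in the same 3' UTRs are not counted. Blue falls from 9.09, 7.70 and 11.1 in the window nearest the stop codon to 0.339 or less in the farthest. Orange stays between 1.11 and 4.29 up to 500 nt and drops to 0.431, 0.462 and 0.784 in the farthest window.

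A ribosome that read through a stop codon would keep the coding frame and halt at the next stop codon in that frame, so the peaks were also placed against that codon. On the strand of the gene, 48 of 92 vector peaks (52.2%), 82 of 169 wild-type peaks (48.5%) and 60 of 105 G325E peaks (57.1%) had midpoints before it, in a stretch that made up 9.19%, 7.15% and 10.2% of the bases of these 3' UTRs. The same count for the first stop codon in the other frames gave nearly the same shares. It was 52.2%, 54.1% and 57.1% in the +1 frame and 51.2%, 47.9% and 59.0% in the +2 frame. Those stretches made up 10.97%, 9.152% and 12.51% of the bases in the +1 frame and 10.48%, 7.662% and 11.55% in the +2 frame. The stretches of all frames begin at the same stop codon, overlap and are of similar size. This count therefore cannot separate the frames, and readthrough was not tested. The lists hold no footprint ends from which a reading frame could be computed.

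Many 3' UTR peaks were listed on the strand opposite to their gene. Opposite to their gene were 40 of 133 peaks in vector (30.1%, interval 22.9 to 38.3%), 122 of 301 in wild-type (40.5%, 35.1 to 46.2%) and 47 of 155 in G325E (30.3%, 23.6 to 38.0%). In the exon class the shares were lower, at 3.41%, 3.63% and 7.13%, and in the TTS class at transcript ends they were higher, at 64.5%, 62.3% and 50.9%. How the authors assigned the strand is not given in the sources used here. An annotated exon of another gene on the listed strand held 3 of the 40 vector peaks, 12 of the 122 wild-type peaks and 1 of the 47 G325E peaks, among them exons of RPL10, STUB1 and POLR1G, so most opposite-strand peaks lay in no annotated exon of their strand. Averaged over genes in place of peaks, the share was 32.4%, 39.3% and 25.8%.

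The 2 kinds of peak also differed in length. All 3' UTR peaks together had a median of 24 bp in vector (quartiles 20 and 30), 22 bp in wild-type (19 and 27) and 24 bp in G325E (20 and 30), against 36, 35 and 38 bp in the exon class. Peaks longer than 50 bp made up 4.38%, 2.54% and 4.52%, against 33.5%, 32.4% and 36.2% in the exon class. Opposite-strand peaks gathered at 20 to 23 bp, with 57.5%, 57.4% and 44.7% of them in that range, while 14.0%, 26.3% and 23.1% of those on the strand of the gene were. On the strand of the gene 65.6%, 54.2% and 59.3% were longer than 23 bp, and on the opposite strand 22.5%, 10.7% and 31.9%. Of opposite-strand exon class peaks, 21.4%, 23.5% and 17.5% were 20 to 23 bp long, so that range was less filled there than in the 3' UTR. The longest peaks were on LBHD1 in vector (90 bp), TRMT5 in wild-type (93 bp) and C19orf81 in G325E (115 bp), and the LBHD1 peak lay in coding sequence of the overlapping gene C11orf98. Peaks of no length numbered 3, 4 and 7.

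**Figure D3:**
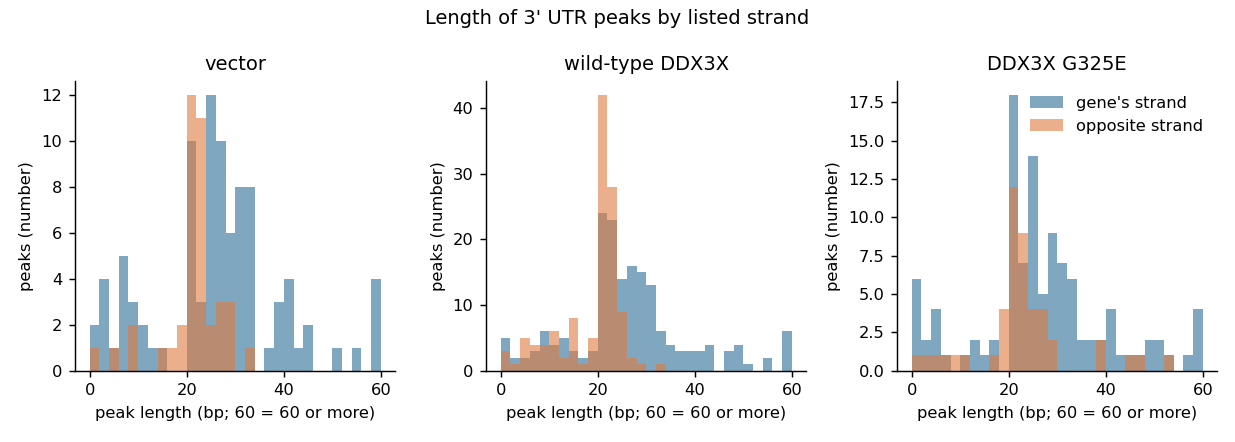
Number of 3' UTR peaks (y axis, its own scale in each panel) by length in bp in 2 bp steps (x axis, peaks of 60 bp or more in the last step), for peaks on the strand of the gene (blue) and on the opposite strand (orange) in each list. Orange is gathered at 20 to 23 bp (57.5%, 57.4% and 44.7% of those peaks), and blue extends to the right of it.

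Base content, measured in the 31 nt around each midpoint on the listed strand, showed few T bases in both kinds. On the strand of the gene T made up 10.5% ± 7.61 (SD, n = 93 peaks) in vector, 10.8% ± 7.12 (n = 179) in wild-type and 8.30% ± 6.75 (n = 108) in G325E. For opposite-strand peaks, read on the strand opposite to the gene, it was 9.11% ± 5.88 (n = 40), 8.67% ± 6.68 (n = 122) and 5.70% ± 5.83 (n = 47). The canonical 3' UTRs of the member genes held 28.6% T and 24.8% A on the gene strand, and their first 500 nt 25.8% T and 21.7% A. On the opposite strand T pairs with the A of the gene, so each kind was low in T on its own listed strand. A made up 26.5%, 27.1% and 18.7% on the strand of the gene and 27.9%, 29.0% and 20.9% on the other. The vector and wild-type values of A were above those of the first 500 nt on the same strand, and the G325E values were below them. Exon class peaks on the strand of the gene were low in T as well, at 13.4%, 13.7% and 11.2%.

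**Figure D4:**
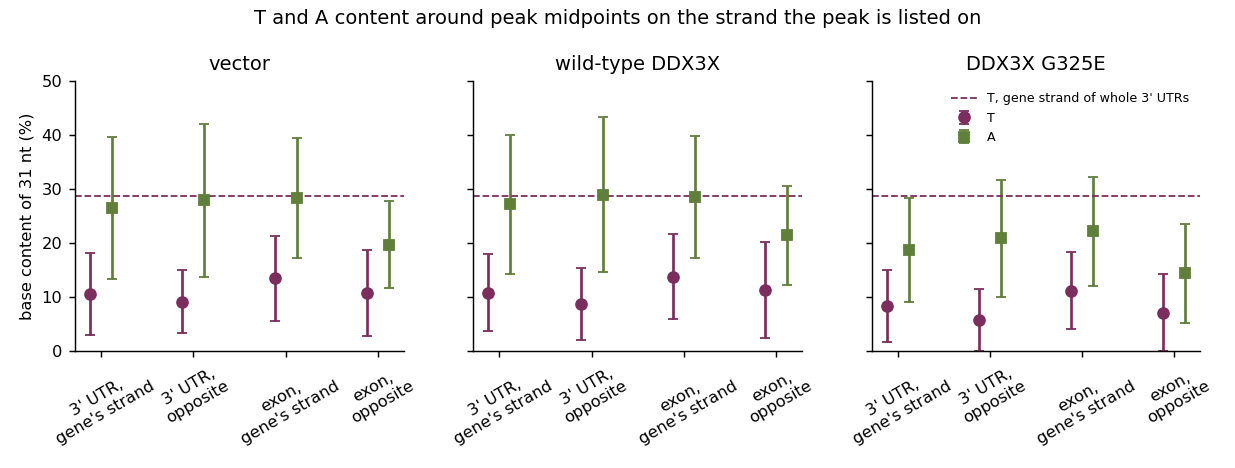
Mean percent of T (purple circles) and A (green squares) in the 31 nt around the midpoint of 3' UTR and exon class peaks on the listed strand (y axis, %), by strand relative to the gene (x axis) and list. Bars are SD over peaks, cut at 0. The dashed line is the T content on the gene strand of the whole 3' UTRs of the member genes (28.6%), which lies above every T circle. It matches only 3' UTR peaks on the strand of the gene. For opposite-strand 3' UTR peaks the matching value is the gene-strand A, 24.8%, which is not drawn, and none is drawn for exon class peaks.

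GC content was highest in the G325E list. Its 3' UTR peaks held 73.1% ± 11.3 (SD, n = 155 peaks) GC, against 62.5% ± 14.6 (n = 137) in vector and 62.0% ± 14.9 (n = 315) in wild-type. Exon class peaks had the same order, 67.6% in G325E, 58.7% in vector and 58.1% in wild-type. The height of the G325E value did not rest on peaks found in that list alone: 3' UTR peaks that overlapped another list held 72.2% ± 10.8 (n = 67) and the others 73.8% ± 11.7 (n = 88). In the exon class those that overlapped held 64.5% and the others 73.9%. Strand made little difference within a list, with 73.0% and 73.4% GC in G325E on the strand of the gene and on the other. Whether the GC content of the whole G325E list reflects the cells or the library was not tested, and with 1 library per construct these cannot be told apart.

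Sharing between lists was lower for 3' UTR peaks than for others. A peak of any class in another list overlapped by at least 1 bp 81 of 137 vector peaks (59.1%, interval 50.8 to 67.0%), 102 of 315 wild-type peaks (32.4%, 27.45 to 37.73%) and 67 of 155 G325E peaks (43.2%, 35.7 to 51.1%). The background over all peaks of each list was 82.5%, 53.7% and 51.1%, so the G325E interval reached its background. Exon class peaks were shared at 89.1%, 53.5% and 67.0%. Longer peaks overlap more easily. Among peaks of 20 to 30 bp the shares were 50.6%, 31.7% and 40.2% in the 3' UTR against 83.9%, 43.2% and 64.2% in exons. The gap was thus also present among peaks of that length. The peaks of other lists that they overlapped were not limited in length, so length was matched on 1 side only. The lists differ in size, which bounds how many partners a peak can have, so the shares of different lists are not on 1 footing.

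Pairwise, 76 vector peaks (55.5%) overlapped a wild-type peak and 32 (23.4%) a G325E peak. Of wild-type peaks, 70 (22.2%) overlapped a vector peak and 55 (17.5%) a G325E peak, and of G325E peaks, 35 (22.6%) overlapped a vector peak and 64 (41.3%) a wild-type peak. The strand was the same for nearly all of these, with 1 wild-type peak and 1 and 2 G325E peaks as the exceptions. Both ends were equal for 8 vector peaks against wild-type and 6 against G325E. On the 28 genes with 3' UTR peaks in all 3 lists, 39 of 52 vector peaks (75.0%), 44 of 59 wild-type peaks (74.6%) and 42 of 69 G325E peaks (60.9%) were shared. Peaks on the strand of the gene were shared at 62.4%, 36.9% and 45.4% and opposite-strand peaks at 47.5%, 26.2% and 38.3%, with intervals that overlapped in each list.

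**Figure D5:**
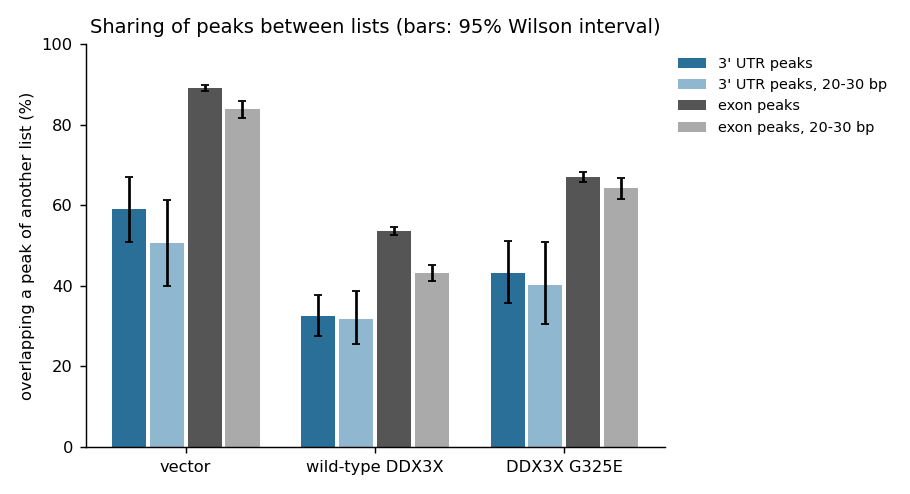
Percent of peaks that overlap a peak of another list by at least 1 bp (y axis) for 3' UTR peaks (blue) and exon class peaks (grey) in each list (x axis), with the pale bars limited to peaks of 20 to 30 bp and 95% Wilson intervals as error bars. The 3' UTR bars (59.1%, 32.4% and 43.2%) stand below the exon bars (89.1%, 53.5% and 67.0%) in every list.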

How the data were processed

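The authors deposited 1 list of ribosome peaks per library as positions with a strand, an annotated region and the nearest gene, with no count or signal column, and the annotation text and coordinates are the only values used. Per the study, reads were trimmed with cutadapt, short reads dropped, and the rest aligned with BWA 0.5.5 to NCBI Build 37 (hg19) with transcript and junction sequences. After duplicate removal, peaks were taken from base coverage in each sample, merged and reviewed by eye. The layout is that of HOMER (version not given in the sources used here).

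Groups came from the sample titles. A peak's gene was that of the RefSeq transcript in its annotation (589 of 607 by the RefSeq table, 11 by the lists, 7 without a symbol), since the nearest-gene column named another gene for 55, 147 and 54 peaks in vector, wild-type and G325E. Midpoints were placed on GENCODE release 44 canonical transcripts on GRCh37, available for 589 peaks. Of those, 132, 290 and 153 lay in a 3' UTR. Distances run from the last base of the stop codon, and densities leave out the last 100 nt of a transcript. Opposite-strand counts exclude peaks with no canonical transcript. Peaks of no length counted as 1 base in overlaps.

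Named genes were those with most 3' UTR peaks in sum, in all 3 lists or in a single list, those with the longest peaks, DDX3X, and members of the gene groups with peaks in at least 2 lists. Others are named for the regions called in all 3 lists, or were chosen after their values were seen. Members, groups and comparisons were chosen with earlier results of these data known. TUBB, missed by the symbol pattern of its group, was added after its values were seen, as was 1 histone gene. Analyses used Python 3.11.15, pandas 2.3.3, numpy 2.4.6, scipy 1.17.1 and pysam 0.24.0, and transcript placement was tested on simulated positions. No test between constructs was run, as there was 1 library each. Alternatives varied the annotation class, the total, the minimum length (20 bp), the overlap, the window and the unit, and those on the opposite-strand share were chosen after seeing the data.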

Additional observations from a re-analysis of the deposited data

How the results depend on the processing

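Of 81 alternative values computed, 58 stayed within the interval of the reported value and 23 did not. The share of 3' UTR peaks moved most. In vector, wild-type and G325E it was 2.19%, 2.71% and 2.19% of the 5' UTR, exon and 3' UTR classes, 6.90%, 6.46% and 4.61% with the TTS class added, and 2.02%, 2.46% and 1.53% by the canonical 3' UTR. Wild-type exceeded vector in each of these except the one with the TTS class. G325E was level with vector over the 3 classes. On genes with any peak in all lists the shares were 1.24%, 1.49% and 1.26%, and G325E was no longer the lowest. With the TTS class the median length was 27, 25 and 29 bp. An overlap of at least 50% of both peaks lowered sharing to 48.9% in vector and 33.5% in G325E. Within 100 nt of the stop codon lay 38.6%, 35.2% and 39.9% of midpoints, and in wild-type 27.7% lay within 50 nt when peaks on the strand of the gene were taken alone. GC content over whole peaks was 64.0% in wild-type and 75.1% in G325E. Of vector peaks of at least 20 bp, 100.0% were in the last exon. Among shared wild-type peaks 32.7% were on the opposite strand. The cause of these shifts was not tested beyond what each setting changes by construction. No paired analysis was possible because each construct had 1 library. The lists hold no read counts, so a gene without a 3' UTR peak may have had too few reads to be called.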

Other observations

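Some 3' UTR peaks lay in annotated pseudogenes or on nuclear copies of a mitochondrial gene. Reads from such sequence can be assigned to the wrong copy. How alike the copies are was not measured, and wrong assignment was not tested. The EDARADD 3' UTR contains ENO1P1, a pseudogene of the glycolytic enzyme enolase 1, and its 2 vector and 2 wild-type peaks all lay in it, with 0 in G325E. TRMT5, a tRNA methyltransferase, had 2, 1 and 2 peaks in vector, wild-type and G325E, all 2640 to 2818 nt after the stop codon, and 4 of them lay in a processed pseudogene that has no symbol. Neither gene had an exon class peak in any list. MTRNR2L1 and MTRNR2L6, nuclear copies of the mitochondrial 16S ribosomal RNA gene, had 2 and 2 peaks in vector, 4 and 2 in wild-type and 0 in G325E. Their listed strand could not be compared with a canonical transcript. In all, annotated pseudogenes held 4 vector peaks, 3 wild-type peaks and 1 G325E peak.

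Genes with several 3' UTR peaks in wild-type or G325E and 0 in vector included NRARP, a regulator of Notch signalling (0, 2 and 5), CBX6, a Polycomb protein (0, 5 and 1), and H2AX (0, 2 and 4). NRARP and CBX6 had no vector peak of any class, beside 8 and 19 in wild-type and 17 and 11 in G325E, while H2AX had 3, 6 and 10 peaks of all classes. DUSP9, a MAP kinase phosphatase, had the reverse order, with 4, 1 and 0, beside 5, 5 and 0 exon class peaks. These genes were chosen after their values were seen.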
